A study of Homo sapiens with 12 samples.

Results

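Described here are the 10 genes that carry the signal from cytosolic RNA to the transcription factor IRF3: the RNA receptors DDX58, IFIH1 and DHX58, the ubiquitin ligases TRIM25 and RNF135, the adaptor MAVS, the kinases TBK1 and IKBKE, and the transcription factors IRF3 and IRF7. They were taken by gene symbol from both deposited tables, which list all 10 members among 26485 genes. HEK293T, a line derived from human embryonic kidney, was transfected with plasmid DNA and polyethylenimine in every group. The 4 groups of 3 samples received PX330-GFP-cas9-6T-sgRNA, PX330-GFP-noCas9-6T-sgRNA, PX330-GFP-cas9-luciferase-sgRNA or PX330-GFP-noCas9-luciferase-sgRNA. Every group was thus given a GFP plasmid with a guide RNA, although not every cell need have taken it up. Cas9, the nuclease that the guide directs to DNA, was part of the plasmid or left out. No untransfected group was among the samples, and the time between transfection and harvest is not given in the sources used here. Polyadenylated RNA was sequenced. Each table gives the mean of a condition A and of a condition B for 1 guide. Which of these held Cas9, and whether the order is the same in both tables, is not given, so every difference below is condition B relative to condition A and says nothing of the direction with Cas9.

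RIG-I, the product of DDX58, and MDA5, the product of IFIH1, are helicases that bind viral or otherwise foreign RNA in the cytosol. RIG-I prefers short ends that carry a triphosphate, MDA5 prefers long double-stranded RNA, and LGP2, the product of DHX58, lacks the signalling domains and modulates the other receptors. The ligases TRIM25 and RNF135 (Riplet) help to activate RIG-I, the receptors then act through MAVS on the mitochondrial surface, and the kinases TBK1 and IKKε (IKBKE) phosphorylate IRF3 and IRF7, which switch on interferon genes. Much of this signalling runs through protein modification, which RNA levels do not show. DDX58, IFIH1, DHX58 and IRF7 are themselves interferon-induced genes.

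Sequences are shown for the receptors because their promoters can carry the letters bound by interferon-activated factors. RefSeq promoters (GRCh38.p14) were at hand for 6 of the 10 members. Both strands were searched for 2 motifs in the 250 bases before the gene start of the RefSeq entry. The first was GAAA, any 2 bases and GAAA, the core of an interferon-stimulated response element. The second was GGG, any 2 bases and TTTCC, a form of the NF-kappaB site. The first occurred in 1061 of 35116 promoters (3.02%) and the second in 608 (1.73%). IFIH1 held 3 matches to the response element core, of which 2 overlap each other, and 1 match to the NF-kappaB form. DDX58 held 1 match to the NF-kappaB form. TRIM25, MAVS, TBK1 and IKBKE held neither motif in this window. The stretches are printed 5′ to 3′ on the strand of the gene, with matched letters in capitals. Where a match reads TTTC or GGAA at its start, the motif lies on the opposite strand. The RefSeq start is not always the gene start of the GENCODE coordinates given with each gene below. By those coordinates the DDX58 stretch and part of the IFIH1 stretch at chr2:162318685-162318730 lie inside the gene. So does nearly all of the TBK1 window, and the TRIM25 and MAVS windows reach into their genes. Which matches are found therefore depends on the start used. IFIT1, a gene switched on by IRF3, is added for comparison.
IFIH1, response element core, chr2:162318803-162318868: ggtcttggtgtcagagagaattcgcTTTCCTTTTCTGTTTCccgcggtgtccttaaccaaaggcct
IFIH1, response element core, chr2:162318685-162318730: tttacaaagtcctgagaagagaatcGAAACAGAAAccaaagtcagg
IFIH1, NF-kappaB form, chr2:162318726-162318785: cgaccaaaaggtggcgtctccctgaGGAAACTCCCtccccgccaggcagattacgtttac
DDX58, NF-kappaB form, chr9:32526238-32526297: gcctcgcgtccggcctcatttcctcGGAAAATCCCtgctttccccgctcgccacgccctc
IFIT1, response element core, chr10:89392482-89392554: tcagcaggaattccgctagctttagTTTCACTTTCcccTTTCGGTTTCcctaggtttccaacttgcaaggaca
A match describes these letters and is not evidence of binding in these cells.

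The values below are normalized reads, that is, reads divided by the size factor of each library. The deposited means allowed whole reads to be recovered for the 3 libraries behind each of them, named here A1 to A3 and B1 to B3 in order of size factor, with no link to a replicate number. Reads in genes ran from 5884769 to 8298280 per library in 9 libraries and from 19399375 to 38076941 in the 3 libraries of condition B of the Luciferase table, where condition and depth therefore cannot be told apart. Since no label tells whether a group's 3 samples grew as independent cultures, p-values reflect the spread among these samples, which may be technical. Of the HEK293T markers, all 10 were expressed, with a summed level of 14514 to 16204 normalized reads over the group means. Of 10 immune-cell markers, 8 had a mean under 10, and CD3E and MS4A1 had no read in any library.

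Level, in normalized reads per kb of exon averaged over the 12 libraries, separated the pathway into abundant and scarce parts. IRF3 was highest at 282 ± 20.2 (SD over 12 libraries, as in the values that follow), then TRIM25 at 183 ± 14.3, MAVS at 140 ± 11 and RNF135 at 85.0 ± 7.13. The kinase TBK1 stood at 70.9 ± 17.1 and IKBKE at 25.3 ± 4.02. The receptors and IRF7 were at the low end, with DDX58 at 11.3 ± 3.96, DHX58 at 4.08 ± 1.38, IRF7 at 2.25 ± 1.31 and IFIH1 at 1.82 ± 1.04. The ligases, the adaptor, the kinases and IRF3 were thus all above the 3 receptors in this mean. Of the neighbours in this order, IRF3 and TRIM25, MAVS and RNF135, TBK1 and IKBKE, and DDX58 and DHX58 did not overlap in any library. TRIM25 and MAVS, and IKBKE and DDX58, overlapped between libraries, although the first of each pair was higher within each of the 12 libraries. RNF135 was above TBK1 in 9 of 12 libraries, DHX58 above IRF7 in 9 and IRF7 above IFIH1 in 8.

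**Figure D1:**
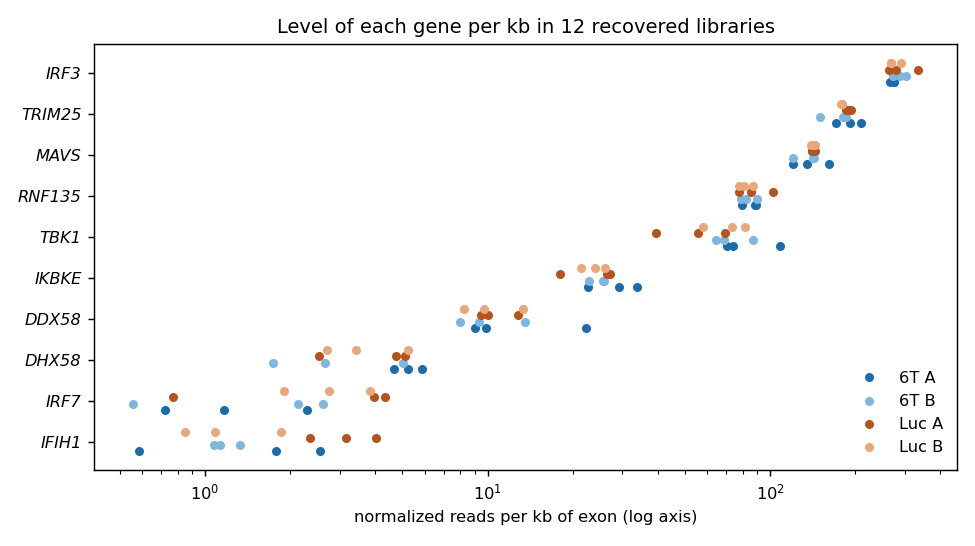
Level of each gene in the 12 recovered libraries, in normalized reads per kb of exon on a log axis, with 1 point per library coloured by guide and condition. IRF3 averages 282 and IFIH1 1.82, and the receptors lie below the kinases in the mean.

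Within families the levels per kb were unequal in every library. DDX58 was 3.17 to 15.8 times IFIH1 (median 6.84) and 1.58 to 7.82 times DHX58 (median 2.86). TBK1 was 1.49 to 4.77 times IKBKE (median 2.86). TRIM25 was 1.66 to 2.50 times RNF135 (median 2.21), and IRF3 was 64.5 to 542 times IRF7 (median 124), where IRF7 rests on 1 to 32 reads per library. The order of all 10 genes was the same when the median transcript length replaced the length of all exons.

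Between conditions, no member passed the authors' test in either table. In RNA from whole cultures, fewer cells expressing a gene and less RNA per cell cannot be told apart. In the authors' deposited tables the adjusted p of all 10 genes was 1 under both guides, beside 8 genes of 19246 called in the 6T table (0.0416%) and 0 of 20194 in the Luciferase table (0%). At an unadjusted p under 0.05 there were 0 members under the 6T guide, beside 0.868% of all genes, and 1 member, IFIH1, under the Luciferase guide, beside 1.22%. By the authors' means 8 of 10 members were lower in condition B under each guide. Among genes with a mean of 10 or more this was 7 of 8 members under 6T, beside 57.8% of all genes, and 6 of 8 under Luciferase, beside 51%. The median log2 fold change of the 10 members was -0.17 under 6T and -0.08 under Luciferase, beside -0.03 and -0.01 over all genes with a mean of 10 or more. In the limma fit of the recovered libraries, 0 of the 8 members with a mean of 10 or more passed at an adjusted p under 0.05 in either comparison, beside 0.0215% of genes under 6T and 0% under Luciferase. At an unadjusted p under 0.05 that fit also held 0 of the 8 in either, beside 3.1% and 10.9% of genes.

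**Figure D2:**
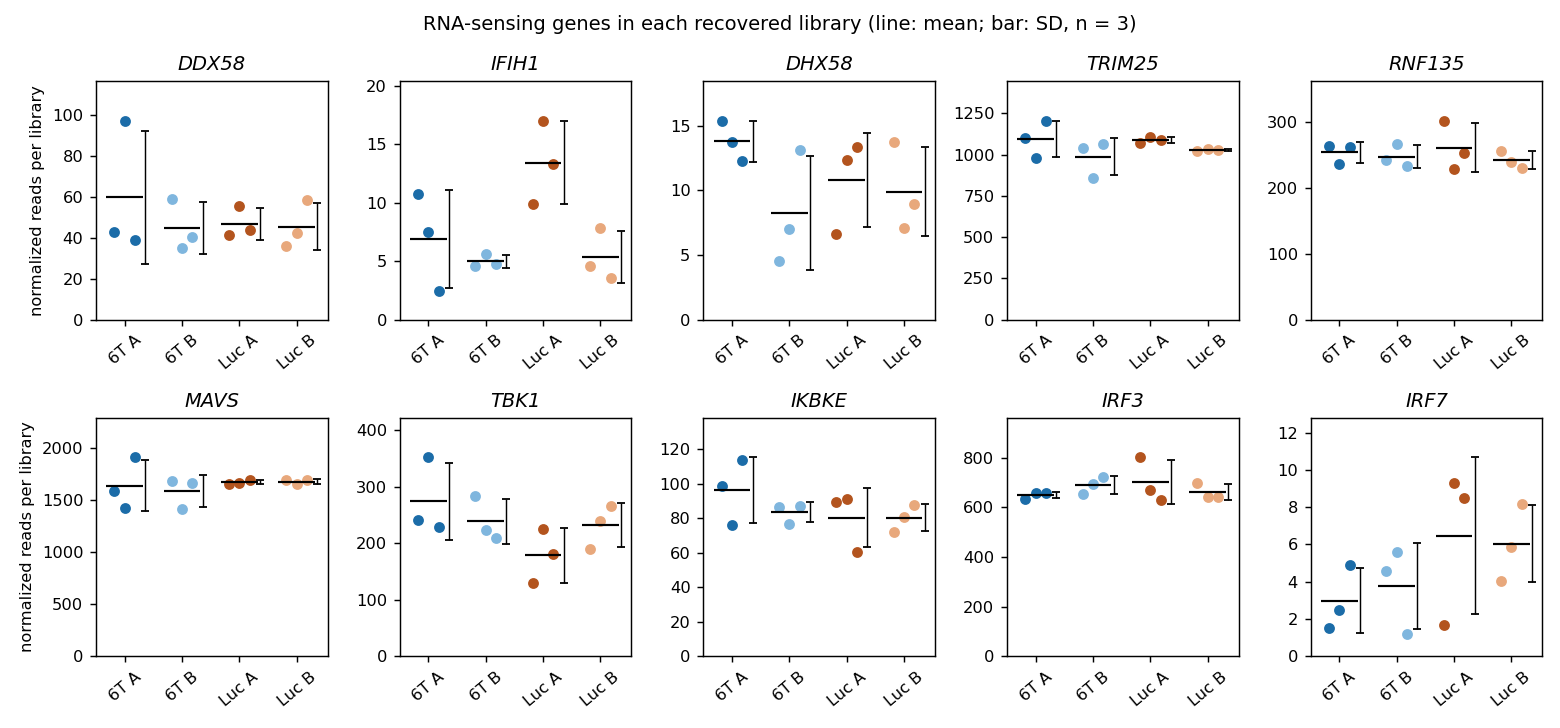
Normalized reads of the 10 genes in each recovered library (points), with the mean (line) and SD (bar, n = 3) of each group; every axis starts at 0. Library A2 of the 6T table is high for DDX58 (97.3) and TBK1 (352), and the Luciferase A libraries are high for IFIH1.

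Among the receptors, DDX58 (9:32455705-32526324, minus strand, GRCh38) had 43.1, 97.3 and 39.2 normalized reads in the condition A libraries of the 6T table and 59.2, 34.9 and 40.6 in those of condition B. The groups overlapped, and library A2 stood well above the other libraries of its group. The means were 59.9 ± 32.5 and 44.9 ± 12.7 (SD, n = 3), a fold of 0.750 that became 1.09 without library A2. Under the Luciferase guide DDX58 had 41.3, 55.7 and 43.6 in condition A and 36, 42.3 and 58.3 in condition B, with means of 46.9 ± 7.71 and 45.6 ± 11.5. The limma 95% interval of the fold was 0.497 to 1.3 under 6T and 0.595 to 1.55 under Luciferase.

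IFIH1 (2:162267079-162318703, minus strand) was the member with the largest difference between conditions. Under the Luciferase guide it had 9.91, 17 and 13.3 normalized reads in condition A and 4.57, 7.84 and 3.58 in condition B. The groups did not overlap, with every condition A library above every condition B library. The means were 13.4 ± 3.55 and 5.33 ± 2.23 (SD, n = 3), which is 2.52-fold lower in condition B, and between 2.16-fold (without B3) and 3.29-fold (without B2) lower with each library left out. These means rest on 28 and 43 reads in all, whose ratio after scaling was 0.378 with an exact 95% interval of 0.230 to 0.632 for counting error only. In the authors' deposited table the unadjusted p was 0.0387 and the adjusted p was 1, and in the limma fit without a filter on low values the unadjusted p was 0.0181 and the adjusted p 0.545. Under the 6T guide IFIH1 had 10.8, 7.49 and 2.45 in condition A and 4.55, 5.59 and 4.78 in condition B. These groups overlapped, on 15 and 11 reads, with a counting interval of 0.312 to 1.75. The difference of the 2 guides' changes was -0.98 on the log2 scale in the limma fit without a filter, with an adjusted p of 0.598.

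DHX58 (17:42101404-42112733, minus strand) had 15.4, 13.7 and 12.2 normalized reads in condition A of the 6T table and 4.55, 6.98 and 13.1 in condition B. Library B3 reached into the range of condition A. The means were 13.8 ± 1.57 and 8.22 ± 4.42 (SD, n = 3), 1.68-fold lower in condition B, and 1.37-fold to 2.39-fold lower with each library left out. The exact counting interval of the ratio, 0.335 to 1.15, and the limma interval of the fold, 0.324 to 1.04, both include 1. Under the Luciferase guide the means were 10.8 ± 3.64 and 9.90 ± 3.43, with overlapping groups.

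The ligases differed little between conditions, and neither passed the test. TRIM25 (17:56836387-56914080, minus strand) had 1069, 1109 and 1086 normalized reads in condition A of the Luciferase table and 1019.8, 1033 and 1028 in condition B. The groups did not overlap, although their means of 1088 ± 20 and 1027 ± 6.51 (SD, n = 3) differed by a log2 fold change of only -0.08, with an authors' deposited p of 0.640. Under 6T the groups overlapped, with 1099.9, 981 and 1203 in condition A against 1039, 860.2 and 1065 in condition B. An exon of TRIM25 contains the microRNA gene MIR3614 on the same strand, which the tables list separately. RNF135 (17:30968785-30999911, plus strand) averaged 254 ± 15.9 and 248 ± 16.9 under 6T and 262 ± 37.4 and 242 ± 13.7 under Luciferase, overlapping in both. The limma intervals of the fold were 0.779 to 1.04 and 0.816 to 1.09 for TRIM25, and 0.813 to 1.17 and 0.777 to 1.12 for RNF135, under 6T and Luciferase in that order.

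In total, 2 of 10 members, IFIH1 and TRIM25, had groups that did not overlap between the conditions of the Luciferase table, both lower in B, beside 13.7% of all genes above 0. Under the 6T guide this was 0 of 10, beside 6.72%.

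The adaptor MAVS (20:3846799-3876123, plus strand) had the most reads and the smallest spread of group means. Under the Luciferase guide it had 1657, 1662 and 1696 normalized reads in condition A and 1688, 1649 and 1693 in condition B, with a log2 fold change of 0.00. Under 6T it had 1587, 1422 and 1908 in condition A and 1682, 1415 and 1665 in condition B. The groups overlapped under both guides. The limma interval of the fold was 0.834 to 1.13 under 6T and 0.860 to 1.17 under Luciferase.

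Of the kinases, TBK1 (12:64451880-64502108, plus strand) had 242, 352 and 229 normalized reads in condition A of the 6T table and 284, 223 and 209 in condition B. Under Luciferase it had 129, 226 and 181 in condition A and 189, 239 and 267 in condition B. The groups overlapped in both tables. The authors' log2 fold change was -0.20 under 6T and 0.38 under Luciferase, opposite in sign, with unadjusted p of 0.385 and 0.217 in the authors' deposited tables. The limma test of the difference between the guides gave 0.58 ± 0.31 (SE) on the log2 scale, with an adjusted p of 0.482. Without library A2 the 6T value was 0.01, and without library A1 the Luciferase value was 0.18. IKBKE (1:206470476-206496889, plus strand) averaged 96.2 ± 19.0 and 83.5 ± 5.78 under 6T and 80.4 ± 17.1 and 80.2 ± 7.85 under Luciferase (SD, n = 3), with overlapping groups and limma intervals of the fold of 0.659 to 1.17 and 0.758 to 1.35.

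Among the transcription factors, IRF3 (19:49659569-49665875, minus strand) had 635, 656 and 659 normalized reads in condition A of the 6T table and 652, 693 and 724 in condition B. Under Luciferase it had 801, 669.6 and 632 in condition A and 697, 642 and 643 in condition B. The groups overlapped in both tables, and the limma interval of the fold was 0.916 to 1.23 under 6T and 0.819 to 1.10 under Luciferase. Exons of IRF3 overlap those of BCL2L12 on the opposite strand. Whether the counting used strand is not given in the sources used here, so the split of reads between these genes is uncertain. IRF7 (11:612553-615999, minus strand) was close to absent, with means of 2.98 ± 1.73 and 3.78 ± 2.30 under 6T and 6.47 ± 4.19 and 6.04 ± 2.07 under Luciferase. It rests on 7 and 8 reads per condition under 6T and 14 and 55 under Luciferase. The counting intervals of the ratio, 0.371 to 3.79 and 0.531 to 1.88, are wide and leave out the spread between libraries. In the limma fit without a filter the intervals of the fold were 0.482 to 2.76 and 0.449 to 2.57. A change within either kind of interval could have gone undetected.

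**Figure D3:**
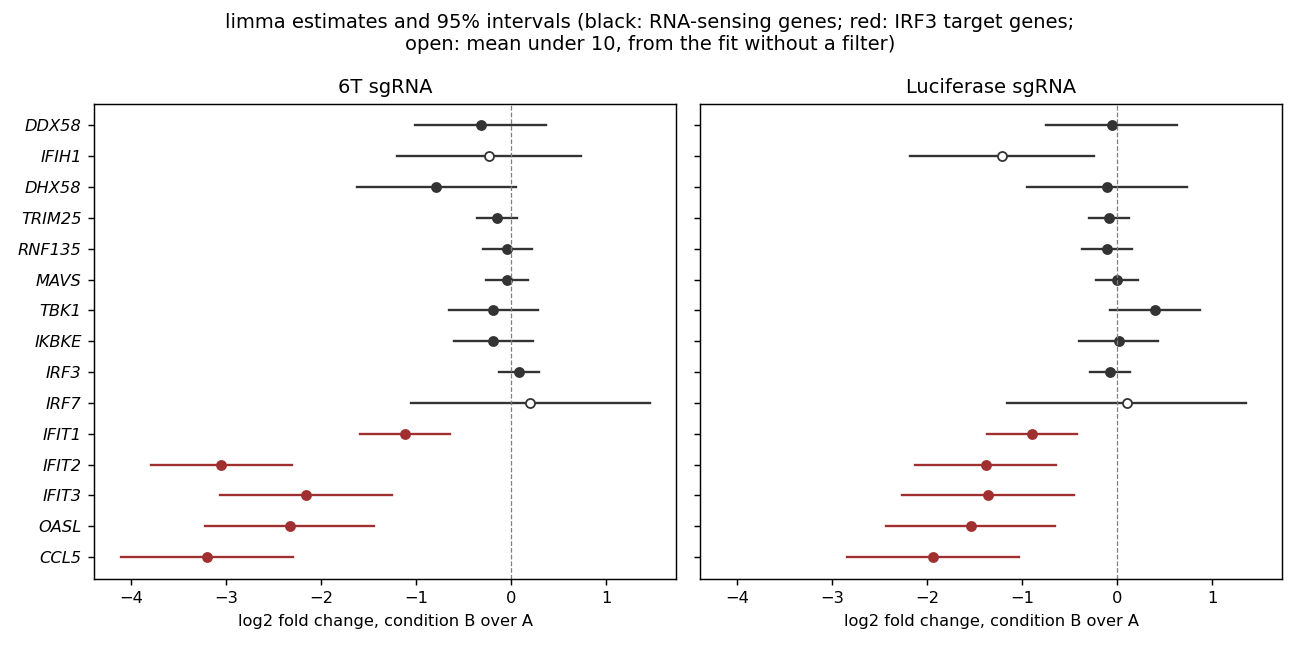
Log2 fold change of condition B over A with 95% intervals from limma for the 10 genes (black; open where the mean is under 10, from the fit without a filter) and 5 target genes of IRF3 (red), by guide. The intervals of all 10 genes include 0 under 6T, and only that of IFIH1 leaves it out under Luciferase.

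Some genes downstream of IRF3 were called under the 6T guide, as given with their list below. In the authors' deposited tables IFIT2 had a log2 fold change of -3.13 under 6T (adjusted p = 4.59e-09) and -1.41 under Luciferase, where no gene was called, and IFIT1 had -1.09 (adjusted p = 0.0322) and -0.90. The 6T call of IFIT1 was lost in the limma fit of 12 libraries (adjusted p = 0.233), and that of IFIT2 was kept (adjusted p = 0.00751). ISG15, PMAIP1, HERC5 and ZC3HAV1 of the same list were not called under either guide.

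Between guides, the same condition could be compared because both tables share 1 normalization, with the reserve that the conditions may not match in Cas9. TBK1 had the smallest p of the members in condition A. Its 6T libraries (229 to 352) lay above its Luciferase libraries (129 to 226) without overlap, by a narrow margin between 229 and 226, and 1 of 10 members, TBK1, was without overlap, beside 24.7% of all genes above 0. The limma difference was -0.63 ± 0.22 (SE) on the log2 scale for Luciferase against 6T, with an unadjusted p of 0.0127 and an adjusted p of 0.0893. The adjusted p ran from 0.0469 without library A2 of the Luciferase table, the only setting in which it passed, to 0.491 with a correction for GC content. The ratio of 6T to Luciferase means was 1.54, and 1.16 without libraries A2 of 6T and A1 of Luciferase. Of the 8 members fitted, 0 were called, beside 0.451% of all genes, and 1, TBK1, was at an unadjusted p under 0.05, beside 31.5%. In the limma fit without a filter the scarce members had larger log2 differences for Luciferase against 6T, 1.01 for IFIH1 (adjusted p = 0.189) and 0.77 for IRF7 (adjusted p = 0.444). In condition B, 0 of 10 members were without overlap, beside 11.8% of all genes above 0, and the lowest limma adjusted p was 0.969 among the 8 members with a mean of 10 or more, and 0.954 for IRF7 in the fit without a filter. None of the 8 fitted members was at an unadjusted p under 0.05 there, beside 5.4% of genes, nor in the test of the difference between the guides, beside 9.52%.

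TBK1 moved with the base composition of the libraries. In each library the median log2 deviation of AT-rich genes (GC under 42%, 2398 genes) minus that of GC-rich genes (over 58%, 3165 genes) gives a tilt, which ran from -0.87 in library A1 of the Luciferase table to 0.55 in library A2 of the 6T table. These are the libraries in which TBK1 was lowest (129) and highest (352). TBK1 exons have a GC content of 39.3%, and its log2 level followed the tilt over the 12 libraries with Pearson's r of 0.968 and Spearman's rho of 0.951. This remained 0.908 without those libraries, and was 0.956 within the 6T table and 0.974 within the Luciferase table (n = 6 each). No p is given, since TBK1 is itself an AT-rich gene measured in the same libraries. With a correction for GC content the TBK1 difference between guides in condition A was -0.16 in place of -0.63, and the difference of the guides' changes 0.16 in place of 0.58. The tilt itself differed between these groups. It ran from -0.87 to -0.15 in the Luciferase A libraries and from -0.01 to 0.55 in the 6T A libraries. Such a correction can also remove a difference between the groups, so tilt and group cannot be told apart here. DDX58, with a GC content of 40.2%, had r of 0.566 (rho 0.573), 0.446 without the same libraries, 0.892 within the 6T table and 0.534 within the Luciferase table. With the GC correction its difference between guides in condition A was 0.19 in place of -0.23. Its limma log2 fold change of B over A was -0.37 in place of -0.06 under Luciferase, and -0.24 in place of -0.32 under 6T. The 3 fitted members with a GC content over 58% did not share a direction. IRF3 (61.3%) had r of -0.741 (rho -0.503), and -0.398 without those libraries. DHX58 (58.2%) had r of 0.0495 (rho 0.028), and -0.604 without them. IKBKE (58.6%) had r of 0.0556 (rho 0.049), and 0.418 without them. RNF135 (56%), TRIM25 (53.5%) and MAVS (52%) had r of -0.653, -0.268 and -0.349, and -0.114, -0.208 and -0.211 without them.

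**Figure D4:**
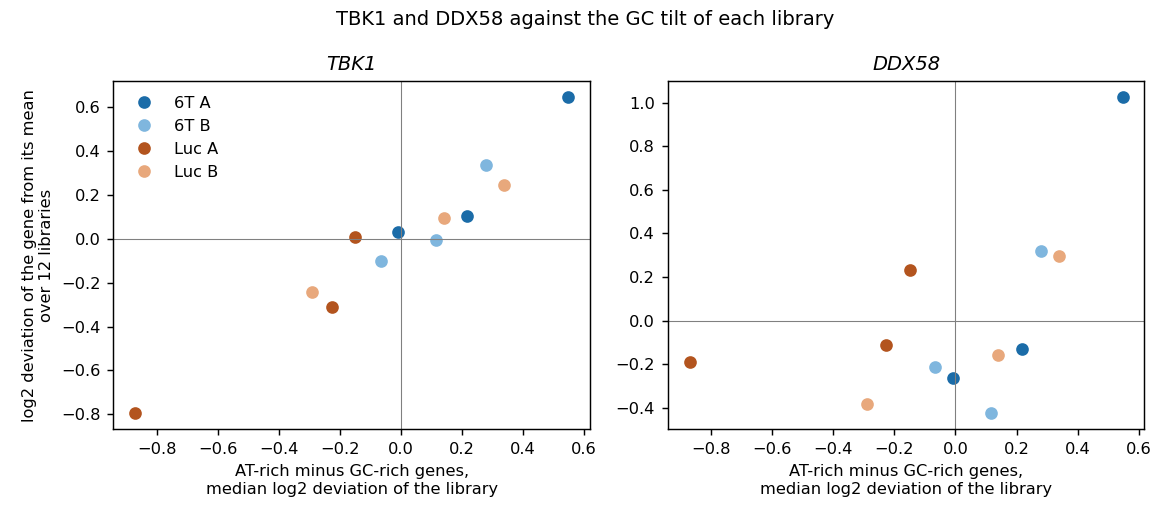
Log2 deviation of TBK1 and DDX58 from their mean over 12 libraries (y) against the tilt between AT-rich and GC-rich genes of the same library (x), by guide and condition. TBK1 follows the tilt in the 12 libraries (r = 0.968), and DDX58 has r = 0.566 over the same libraries.

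By likeness over the 12 libraries, among 11628 genes with a mean of 50 or more, the genes most like DDX58 were AGGF1 (r = 0.928), PSMA2 (0.919), MRPS10 (0.903) and GAR1 (0.899). IFIT1 came at rank 2711 (0.449). The genes most like IFIH1 were LOC100289361 (0.799), TERF2 (0.794), ANKRD39 (0.793), LIMS1 (0.768) and THRA (0.755). IRF9 came at rank 34 (0.680) and IFIT1 at rank 87 (0.631). These correlations describe libraries that share their depth and base composition with all genes.

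The rest of the pathway was read from lists of genes with a mean of 10 or more in the table concerned. Over all such genes, 57.8% were lower in condition B under 6T (median log2 -0.03) and 51% under Luciferase (median -0.01). Of 28 other factors between receptor and IRF3, 21 were lower and 7 higher in condition B under 6T (median log2 -0.08), and 14 and 14 under Luciferase (median 0.00), with 0 called in either. TANK, a scaffold of TBK1, had -0.36 under 6T, and RIOK3 had 0.42 under Luciferase with an unadjusted p of 0.0347 in the authors' deposited table. RIOK3 was the only 1 of the 28 with such a p under 0.05 there, beside 1.22% of all genes. Of 32 negative regulators 31 had a mean of 10 or more, and 0 were called. Of the 31, 18 were lower and 13 higher under 6T (median -0.01), and 16 and 15 under Luciferase (median -0.01). TNFAIP3, the ubiquitin-editing enzyme A20, had -0.39 under 6T.

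Other sensing routes held some genes with few or no reads. Of 10 genes listed for endosomal sensing 5 had a mean of 10 or more, and TLR7 had 2 reads and TLR8 1 read over the 12 libraries. Of 13 genes of cytosolic DNA sensing 9 had a mean of 10 or more. Its sensor MB21D1 (cGAS) had 15 reads in all, and AIM2 and ZBP1 had none. All 9 core subunits of RNA polymerase III, which can turn AT-rich DNA into RNA that RIG-I binds, were measured, with 7 lower and 2 higher under 6T (median -0.01) and 5 and 4 under Luciferase (median -0.05). None of these 3 lists held a called gene in the authors' deposited tables. At an unadjusted p under 0.05 they held 0 genes as well, beside 0.868% of all genes under 6T and 1.22% under Luciferase.

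The list of interferons and direct IRF3 targets held called genes. Because the lists were chosen with earlier results of these data known, its calls are a description and no test of the list. Of its 17 genes, 9 had a mean of 10 or more under 6T, with 7 lower and 2 higher (median log2 -0.34). Of these 9, 4 were called lower, and CCL5, whose mean was under 10, made 5 called in the whole list, beside 0.0416% of all genes. In the limma fit of 12 libraries IFIT2 (adjusted p = 0.00751) and CCL5 (0.0226) were called, while OASL (0.123), IFIT3 (0.216) and IFIT1 (0.233) were not. Under Luciferase 10 genes had a mean of 10 or more, with 9 lower and 1 higher (median -1.08) and 0 called. In the authors' test 5 were at an unadjusted p under 0.05, beside 1.22% of all genes. The interferons themselves were close to absent, with 3 reads of IFNB1, 9 of IFNL1 and 1 of IFNL3 over the 12 libraries and none of IFNA1 or IFNL2.

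**Figure D5:**
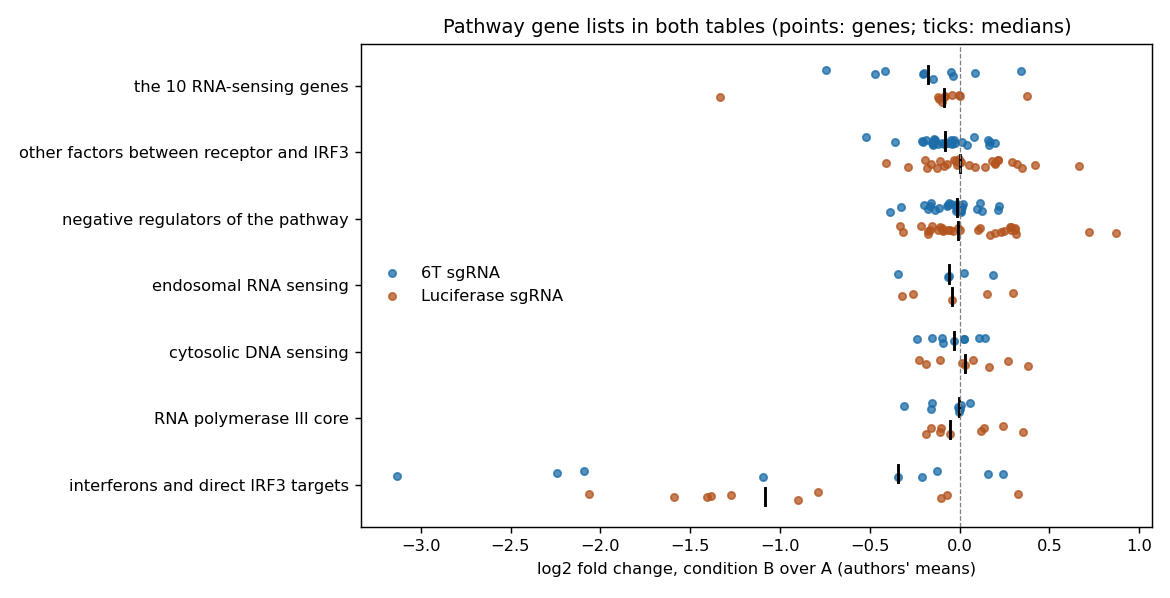
Log2 fold change of condition B over A from the authors' means for the 10 RNA-sensing genes and for the other lists (points are genes with a mean of 10 or more in that table, and all 10 members; ticks are medians), by guide. The targets of IRF3 reach -3.13 under 6T, while the other lists centre near 0.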

How the data were processed

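Per the submitters' processing notes, STAR, HTSeq, DESeq and hg38 were used; versions, strand setting and annotation are not given in the sources used here. The authors deposited, per the file headers, the mean normalized signal of each condition (counts divided by size factors), the fold ratio and its log2, and a p-value with its adjusted value, for 26485 genes in each of 2 tables. The 5 rows that name no gene were left out; they hold 38.6% to 42.3% of the deposited mean. The tables hold 0 columns of single samples.

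Because a mean of 3 libraries is a sum of whole reads over size factors, single-library reads were recovered; 99.65% to 99.97% of genes above 0 per condition had a single solution, all 10 members among them. Genes without one hold 0.88% to 12.09% of the reads of a library and are missing from values by library, not from counts over the lists. The size factors differed from median-of-ratios factors over 12 libraries by at most 0.0372%. The main test is the authors' p as deposited. Differences by library used limma 3.58.1 (R 4.3.3) with a mean-variance trend on log2(normalized reads + 1), for 13979 genes with a mean of 10 or more and 12 libraries in 4 groups; such fold changes understate those of low genes. IFIH1 and IRF7 fall under that mean and have values from the fit without it (20465 genes). Adjusted p-values are Benjamini-Hochberg over all genes fitted, called under 0.05, 2-sided. Intervals of summed reads are exact and cover counting error only. The recovery and the fit were tested on simulated data. Gene coordinates and lengths are from GENCODE on GRCh38, where 23825 gene symbols matched (90.0%).

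The members and lists were chosen with earlier results of these data known. Named were all 10 members, from each list the genes called or else those with the 2 smallest p, of which some are printed, and for DDX58 and IFIH1 the 5 genes most like them, of which 1 is not reported here. The reads of single interferons and sensors were chosen after their values were seen, as were the NF-kappaB motif, the choice of IFIT1 and IRF9 for ranks, and the fits for TBK1 without named libraries. Alternatives were the pseudocount, the filter, the scaling, voom, a GC correction, each table alone and each library left out.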

Additional observations from a re-analysis of the deposited data

How the results depend on the processing

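Of the 8 members with a mean of 10 or more, none was called in any comparison under any alternative run, except TBK1 between guides in condition A without library A2 of the Luciferase table (limma adjusted p = 0.0469). IFIH1 and IRF7 had a single alternative, the fit without a filter, in which neither was called. Of 792 refits of 50 member values, 783 moved by less than 1 SD and 9 by more; 69 changed sign, 7 of them where the value exceeded 0.2 on the log2 scale.

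Over all genes, the 8 called under 6T by the authors' test became 3 with limma on 12 libraries and 0 with limma on the 6T libraries alone. With each library left out, that limma count of 3 ranged from 0 to 5, and the limma count of 0 under Luciferase from 0 to 1. Between guides in condition A, the 63 called became 7 without a filter, 177 with a mean of 50 or more, 289 with scaling by total reads, 4 with voom and 11 with the GC correction, and ranged from 0 to 1193, the last without library A2 of the Luciferase table. In condition B, 0 became 1 with the GC correction and ranged from 0 to 2. The difference between guides had 0 called under every alternative run, beside 9.52% of genes at an unadjusted p under 0.05. The causes were not tested.

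No paired analysis was possible because the deposited means carry no replicate numbers. Depth limits IFIH1, DHX58 and IRF7, which have 97, 153 and 84 reads over the 12 libraries.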
